A study of Sus scrofa with 61 samples.

Results

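The expression profiles of the 2 reciprocal crosses were compared at day 90 of gestation in pig longissimus muscle. The members are the 16 fetuses that the labels give as crossbred at day 90, out of 61 arrays in the series. MSLW fetuses (n = 8) had a Large White (LW) sow and a Meishan (MS) boar, and LWMS fetuses (n = 8) came from the opposite mating, of a MS dam with a LW sire. All carried 1 genome copy of each breed on the autosomes, none was treated, and per the study's methods all were males taken by caesarean. Each array measured 1 fetus, labelled with Cy3. Purebred LW and MS fetuses of day 90 (n = 8 each) and the same crosses at day 110 (8 LWMS and 5 MSLW) are used only for comparison. Sows of both breeds received mixed semen, so that MSLW fetuses came from the same kind of litter as LW fetuses, and LWMS fetuses from the same kind as MS fetuses. The sow of each fetus is not in the labels, so littermates count as separate fetuses. The p-values then measure the spread between fetuses, with no term for the litter.

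A reciprocal cross asks whether it matters which parent a genome came from. A male mammal has a single X chromosome and takes it from its dam, as he does his mitochondrial DNA, while imprinted autosomal genes are expressed mainly from the copy of one parent. MSLW males therefore carried the LW X chromosome and LW mitochondria, and LWMS males those of the MS breed. The uterus and the litter differed between the crosses in the same way, so that dam breed, uterine environment and maternally inherited DNA cannot be told apart for a single gene.

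Values are log2 intensities after quantile normalization, and every difference is MSLW minus LWMS on that scale unless named otherwise. A probe was called when its limma p-value, adjusted by the Benjamini-Hochberg method over 42436 probes, was under 1%. Each of the 8 slides held 1 array of each cross. Between 36831 and 45683 probes were well above background per array, with no difference detected between the crosses (exact two-sided permutation test, p = 0.424, adjusted p = 0.701). Exact two-sided p-values for the 75th percentile of the signal, the median background and the number of spots marked as non-uniform were 0.161 or above. Of the MSLW arrays, 2 stood apart with 752 and 537 non-uniform spots, against 5 to 50 on the others. The total of called probes is also given without both, as are some later results, but most counts include them. The tissue label was checked against its markers, and all 12 measured skeletal muscle markers (ACTA1, CKM, DES, TTN and others) were well above background on all 16 arrays.

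The crosses differed at 212 probes (0.500% of those tested), of which 149 were higher in MSLW (0.351%) and 63 lower (0.148%). Without both arrays that stood apart, 175 probes were called, 165 of them among the 212. The calls fell unevenly over the genome. Of 127 probes for mitochondrially encoded genes, 47 were called (37.0%), of 736 probes of X-linked genes 47 (6.39%), and of 19214 probes of autosomal genes 32 (0.167%). A further 86 called probes had no chromosome in the RefSeq table, among 22357 such probes (0.385%). For 124 of the called probes the values of the crosses did not overlap, against 162 of all tested probes (0.382%). The median difference over all tested probes was 0.01, and the 5th and 95th percentiles of the autosomal probes were -0.34 and 0.28. At the level of genes, with the brightest probe of each symbol as its main probe, 46 of 9790 were called (0.470%).

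The purebred fetuses gave the sign of the breed difference for each called probe. For 182 of the 212 probes the cross difference had the opposite sign to MS minus LW, so that each cross lay on the side of its dam's breed, and for 30 it lay on the side of its sire's breed. All 47 mitochondrial probes and 46 of the 47 X-linked probes were on the dam's side, against 17 of the 32 autosomal probes. The side was given by sign alone. The breeds themselves differed at 1% for 177 of the 212 probes, of which 159 were on the dam's side. Of the 32 autosomal probes this was so for 18, with 12 on the dam's side. The purebreds were other animals, so probes could also be chosen on them alone. The paper describes litters that held both purebred and crossbred fetuses, so a purebred and a cross may share a sow. A litter effect would then enter both differences with opposite sign, so the purebreds are not a fully independent set. Of the 62 mitochondrial probes that differed between the purebreds at 1%, all 62 had the opposite sign in the crosses, with a median ratio of cross to breed difference of -0.95 (quartiles -1.11 and -0.78). Of 111 X-linked probes chosen in this way, 101 had the opposite sign and the median ratio was -0.71. For the 2461 autosomal probes the median ratio was -0.01, with 1252 of opposite and 1209 of equal sign. These are counts of probes, which share genes and overlap in sequence, and were given no test. In all, 5447 probes differed between the purebreds (12.8%).

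**Figure D1:**
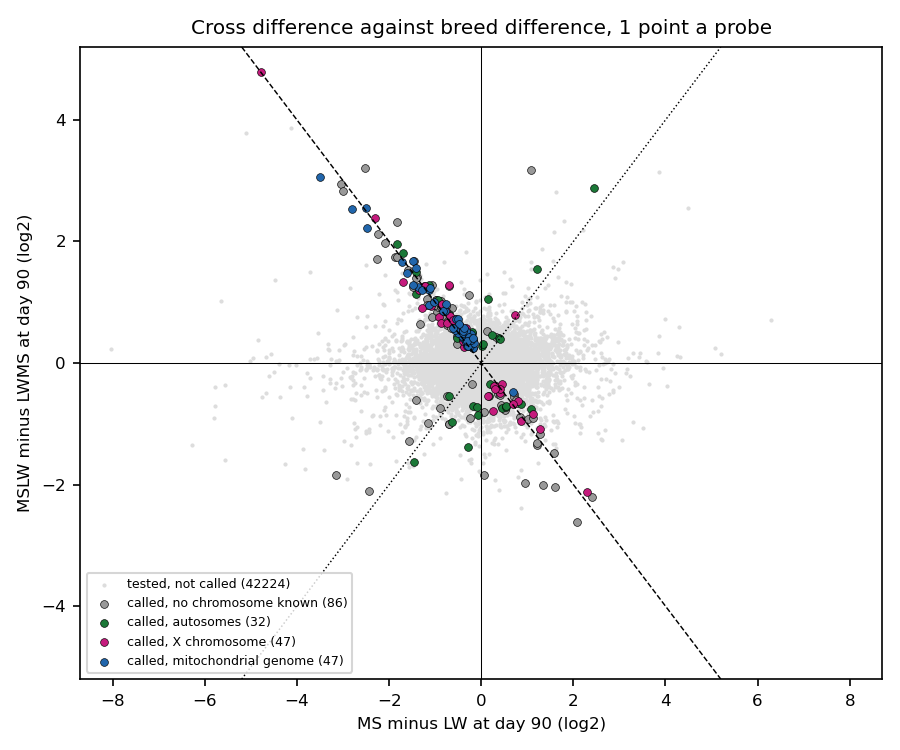
Difference between the crosses against difference between the breeds at day 90, in log2 units, for each of the 42436 probes. Coloured points are the 212 called probes by genome class. The dashed line marks equal size and opposite sign (the dam's side), along which most X-linked and mitochondrial probes lie, and the dotted line equal size and sign (the sire's side).

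Mitochondrial transcripts gave the densest group of calls. The 13 measured genes encode subunits of the respiratory chain and of ATP synthase, and 9 of them had at least 1 called probe. Of the 47 called probes 46 were higher in MSLW. The differences were very uneven along a single transcript, which is why probes are shown by sequence below. ND1, a core subunit of complex I, had 17 called of 20 probes, with differences from -0.47 to 2.55. ND2, another complex I subunit, had 8 of 12, from 0.19 to 3.06. COX1, the catalytic subunit of cytochrome c oxidase, had 6 of 25 (-0.30 to 2.53), and CYTB, the mitochondrial subunit of complex III, 6 of 21 (-0.31 to 1.20). Fewer were called for COX3 (3 of 14), ATP6 (3 of 9), ND3 (2 of 3), ND5 (1 of 3) and ND6 (1 of 2). None was called for ND4 (11 probes, -0.34 to 0.34, median -0.20), COX2 (5 probes, -0.03 to 1.62), ATP8 (1 probe, 0.25) or ND4L (1 probe, -0.25). The ND4 value of 0.34 came from a dim probe (mean 6.33). At the ND4 probe of -0.34 the crosses did not overlap (limma adjusted p = 0.0146).

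**Figure D2:**
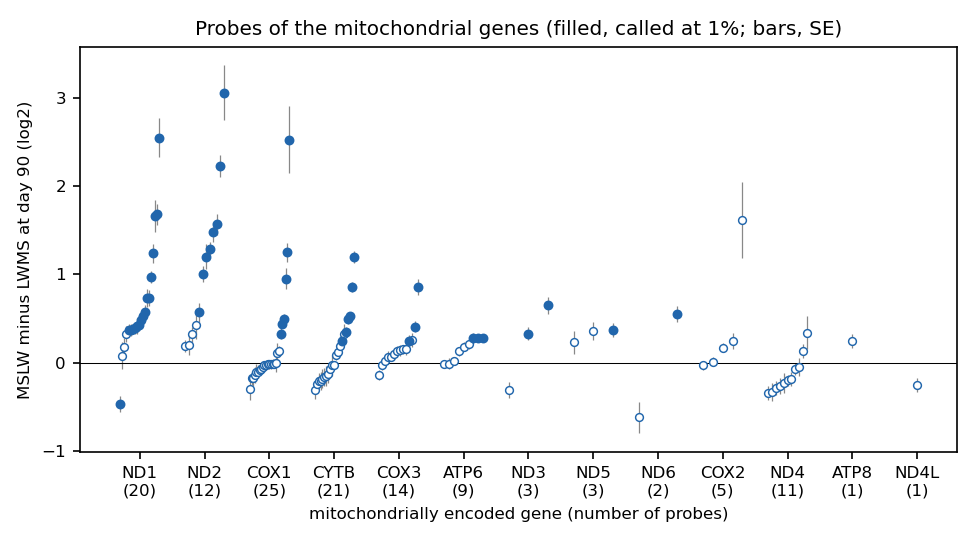
Difference between the crosses (MSLW minus LWMS, log2) for every tested probe of the mitochondrially encoded genes, ordered by size within a gene. Filled points were called at 1% and bars are standard errors. Probes of ND1, ND2 and COX1 run from near 0, or below it, to 2.53 or more.

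Pairs of neighbouring 60-base probes that lie on the same stretch of a transcript show this unevenness. They were chosen after their values were seen. Each is printed 5′ to 3′ as the array design gives it, and capitals mark the longest run of bases that the pair shares.

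ND1 probe A: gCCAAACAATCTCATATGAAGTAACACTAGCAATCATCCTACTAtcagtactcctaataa
ND1 probe B: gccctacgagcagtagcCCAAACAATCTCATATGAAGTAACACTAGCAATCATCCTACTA
ND1 probe C: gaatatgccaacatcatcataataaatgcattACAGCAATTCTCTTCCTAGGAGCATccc
ND1 probe D: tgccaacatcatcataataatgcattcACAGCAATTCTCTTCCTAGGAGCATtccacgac
ND2 probe A: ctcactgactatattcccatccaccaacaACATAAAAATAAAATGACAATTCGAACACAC
ND2 probe B: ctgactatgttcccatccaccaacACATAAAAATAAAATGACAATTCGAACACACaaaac
COX1 probe A: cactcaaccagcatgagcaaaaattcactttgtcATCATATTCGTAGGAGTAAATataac
COX1 probe B: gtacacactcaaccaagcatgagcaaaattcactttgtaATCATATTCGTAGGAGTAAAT
CYTB probe A: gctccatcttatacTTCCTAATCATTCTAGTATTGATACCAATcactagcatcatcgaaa
CYTB probe B: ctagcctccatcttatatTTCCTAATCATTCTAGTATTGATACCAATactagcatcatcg

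For ND1 probe A the MSLW arrays read 14.15 to 14.92 (median 14.44) and the LWMS arrays 11.08 to 13.10 (median 12.19). The groups did not overlap, the difference was 2.55 (SE 0.22, limma adjusted p = 4.98e-13), and MS minus LW was -2.51. ND1 probe B, which shares a run of 43 bases with it, differed by 1.24 (SE 0.11) with MS minus LW at -1.11. ND1 probes C and D share a run of 25 bases and were called in opposite directions. Probe C was higher in MSLW by 0.42 (SE 0.09, adjusted p = 0.00412), whereas probe D ran from 14.72 to 15.34 in MSLW and from 15.19 to 15.61 in LWMS, a difference of -0.47 (SE 0.09, adjusted p = 0.000586). Probe D was the single mitochondrial probe called lower in MSLW.

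The widest gap among mitochondrial probes was at ND2 probe A, with 14.56 to 15.18 in MSLW (median 14.75) and 10.43 to 13.41 in LWMS (median 12.05). Its difference was 3.06 (SE 0.31, adjusted p = 1.05e-10), and its neighbour, probe B, with a shared run of 31 bases, differed by 1.20 (SE 0.14). The LWMS arrays were also more widely spread there (SD 0.99) than the MSLW arrays (SD 0.25). COX1 probe A showed the same picture, at 16.19 ± 0.22 (SD, n = 8) in MSLW and 13.65 ± 1.23 (SD, n = 8) in LWMS, and COX1 probe B differed by 1.25 (SE 0.11). CYTB probe A differed by 1.20 (SE 0.07, adjusted p = 9.07e-21). CYTB probe B, which shares a run of 29 bases with it and differs at single bases beside the run, differed by 0.12 (SE 0.06) and was not called. A probe's brightness depends on how well it pairs with the transcript as well as on how much transcript there is, and the share of either in these differences was not tested.

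The main probes of the mitochondrial genes, which are the brightest, differed less. Of 13 main probes 5 were called, all higher in MSLW, with ND6 at 0.55 (SE 0.09), COX3 at 0.41 (SE 0.06), ND1 at 0.37 (SE 0.07), ND3 at 0.33 (SE 0.07) and CYTB at 0.25 (SE 0.05). The ND6 main probe read 14.82 to 15.09 in MSLW and 14.07 to 14.70 in LWMS, without overlap. COX3 overlapped because of 1 MSLW array at 18.41, the other 7 being at 18.81 or above. The ND3 call was lost in 18 of 27 alternatives (highest adjusted p = 0.19) and the CYTB call in 11 (highest 0.112), while ND6 kept its call in all 27. The second ND6 probe, which is dimmer, differed in the other direction (-0.62, SE 0.18) and was not called (adjusted p = 0.114). ND1 lost its call in 2 and COX3 in 1, the fit of the 16 crossbred fetuses alone being among them.

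X-linked genes held calls in both directions. The 47 called X-linked probes belong to 32 genes, of which 22 were called only higher in MSLW and 9 only lower. Of these genes 21 had more than 1 probe, and in 6 of the 21 every probe was called. The probes of the genes with the clearest cases were as follows, printed without capitals because the pairs share no run of 20 bases.

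SERPINA7 probe A: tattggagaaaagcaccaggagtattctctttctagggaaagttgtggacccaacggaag
SERPINA7 probe B: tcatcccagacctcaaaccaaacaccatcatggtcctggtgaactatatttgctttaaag
PHKA1 probe A: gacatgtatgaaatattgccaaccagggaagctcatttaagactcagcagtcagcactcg
PHKA1 probe B: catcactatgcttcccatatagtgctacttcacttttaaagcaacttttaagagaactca

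SERPINA7, which encodes thyroxine-binding globulin, the main carrier of thyroid hormone in blood, had the largest fitted difference of any called probe. Its probe A read 6.65 to 8.33 in MSLW (median 7.32) and 1.70 to 3.65 in LWMS (median 2.78), where a single array of 8 was well above background. The fitted difference was 4.79 (SE 0.45, limma adjusted p = 9.34e-12). Its size is set by values near background in LWMS and ranged from 1.77 to 4.96 over the alternatives, all of them called. In the purebreds the probe was well above background on all 8 LW arrays and on 1 of 8 MS arrays. Probe B was well above background on 7 MSLW arrays and on none of LWMS, so that MSLW was at least 2.91-fold higher there (adjusted p = 2.82e-08). At day 110 probe A was well above background on 3 of 5 MSLW arrays and on none of the 8 LWMS arrays, and it did not pass the threshold there (adjusted p = 0.0112). Probe B was then well above background on 4 of 5 MSLW arrays and on 4 of 8 LWMS arrays. It differed by 0.23 at that age (adjusted p = 0.846), and its change between the ages was not called (-2.15, adjusted p = 0.0183).

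PHKA1 encodes the muscle alpha subunit of phosphorylase kinase, the enzyme that switches on glycogen breakdown, and it was lower in MSLW. Probe A read 6.43 to 7.28 in MSLW (median 6.84) and 7.61 to 8.20 in LWMS (median 7.95), a difference of -1.09 (SE 0.11, adjusted p = 2.64e-10). Probe B, the main probe, differed by -0.62 (SE 0.10, adjusted p = 5.1e-05), also without overlap. Both probes were lower on all 8 slides and lower again at day 110, by -1.76 and -0.75. PHKA1 was the single called gene of 24 measured in the list of glycogen and glycolysis, against 0.470% of all genes. PGK1, which encodes a glycolytic enzyme, was called at 1 of 7 probes (0.57, SE 0.10) but not at its main probe (0.40, adjusted p = 0.0139), and its other probes ranged from 0.32 to 0.51. ITGB1BP2, which encodes the muscle chaperone melusin, was higher in MSLW at both of its probes (0.73 and 0.62, adjusted p = 0.000368 and 0.00316).

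Further X-linked genes were higher in MSLW. IQSEC2, a regulator of small GTPases at synapses, differed by 0.91 (SE 0.11) at its main probe and by 1.33 (SE 0.12) at the other, and its main probe ran from 11.12 to 11.69 in MSLW and from 10.36 to 10.65 in LWMS. IL1RAPL2, an orphan receptor of the interleukin-1 receptor family, read 6.78 to 7.37 in MSLW and 5.30 to 6.10 in LWMS, a difference of 1.27 (SE 0.13, adjusted p = 1.23e-10). RAB9B, a GTPase of endosomal transport, differed by 1.21 (SE 0.22) with overlapping values. CLCN4, a chloride and proton exchanger of endosomes, differed by 1.28 (SE 0.27), but LWMS values were scattered between 7.49 and 9.81. The call was lost when LWMS replicate 4, 7 or 8 or MSLW replicate 2 was left out and in the fits of fewer groups (highest adjusted p = 0.166).

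Smaller rises without overlap between the crosses were found for SH3BGRL (0.97, SE 0.18), the cleavage factor gene CSTF2 (0.66, SE 0.09), the splicing regulator gene MBNL3 (0.56, SE 0.08) and the chromatin remodeller gene ATRX (0.41, SE 0.06). YIPF6 (0.54, SE 0.11) and DIAPH2 (0.37, SE 0.07) were also called at their main probes, with overlap. The YIPF6 call was lost in 4 of 27 alternatives and the DIAPH2 call in 5. The 3 other DIAPH2 probes ranged from -0.29 to 0.52, of which the one at 0.52 was called. RPS4X, which encodes a protein of the small ribosomal subunit, shows how probes of a gene can part. Of its 15 probes 3 were called, at 0.75, 0.66 and 0.26, and the others ranged from 0.02 to 0.26. SMC1A, a cohesin subunit gene, was called at 1 probe (0.94, SE 0.16), while its main probe differed by -0.12 (SE 0.13).

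NLGN3, which encodes the synaptic adhesion protein neuroligin 3, had the largest fall among the main probes. It read 3.31 to 5.25 in MSLW (median 4.76) and 6.42 to 6.90 in LWMS (median 6.77), and the difference was -2.12 (SE 0.22, adjusted p = 2.23e-10), with a range of -2.21 to -1.04 over the alternatives, all of them called. The 3 other NLGN3 probes, which were well above background on 4 to 6 arrays of each cross, ranged from -0.19 to 0.37 and were not called. TCEAL5 and TCEAL8, of the TCEAL family of nuclear proteins, fell by 0.95 and 0.37 on the log2 scale, the former without overlap. The growth factor homologue gene FGF13 differed by -0.43 (SE 0.09), the ubiquitin ligase gene PJA1 by -0.55 (SE 0.12) at its main probe and 0.01 at the other, and the lysosomal membrane protein gene LAMP2 by -0.34 (SE 0.08, adjusted p = 0.0098), which lies just inside the threshold and was lost in 20 of 27 alternatives. The other LAMP2 probes ranged from -0.68 to 0.33. The PJA1 call was lost in 5 of the 27.

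EIF2S3, the gamma subunit of the translation initiation factor eIF2, was the exception on the X chromosome. Its probe read 12.13 to 12.96 in MSLW (median 12.76) and 11.64 to 12.11 in LWMS (median 11.88), so that the groups were separate by a small margin. The difference was 0.79 (SE 0.11, adjusted p = 5e-07) while MS minus LW was 0.73, and MSLW and MS fetuses, which share the breed of their sire, both averaged 12.69. In many mammals EIF2S3 has a close relative on the Y chromosome. Which of them the probe reads was not tested. Of genes placed on the Y chromosome 2 were measured, and neither was called.

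**Figure D3:**
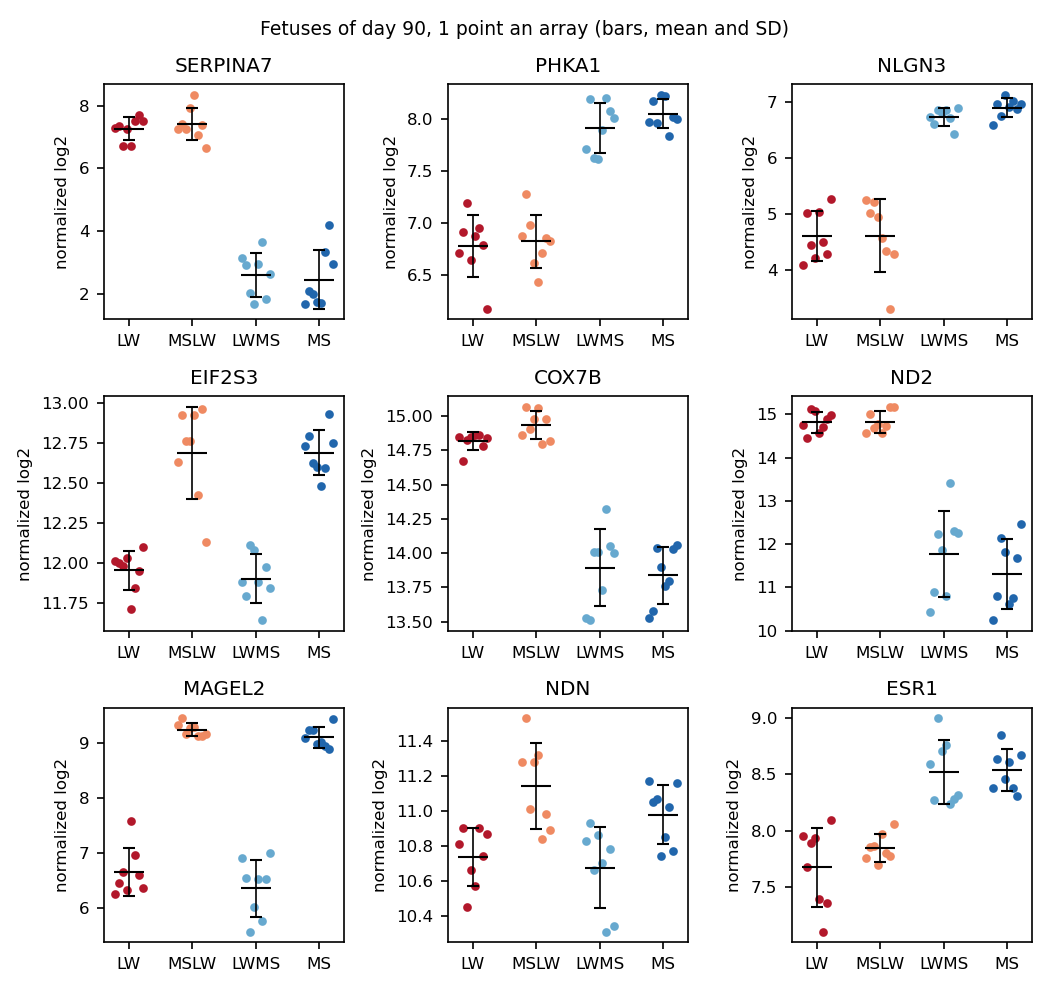
Normalized log2 value of each fetus of day 90 in the 4 groups, for probe A of SERPINA7, PHKA1, ND2 and of MAGEL2 (printed with the imprinted genes) and the main probes of NLGN3, EIF2S3, COX7B, NDN and ESR1. Bars are mean and SD. MSLW lies with LW for SERPINA7, PHKA1, NLGN3, COX7B, ND2 and ESR1, and with MS for EIF2S3 and MAGEL2. For NDN it is on the side of MS by sign, with no called difference between the breeds.

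Among genes with no chromosome in the table, 3 had a called main probe. COX7B, a nuclear-encoded subunit of cytochrome c oxidase, read 14.80 to 15.07 in MSLW (median 14.95) and 13.51 to 14.32 in LWMS (median 14). Its difference was 1.04 (SE 0.10, adjusted p = 6.53e-12), with MS minus LW at -0.98. NAP1L2, a nucleosome assembly protein gene, differed by -1.17 (SE 0.22) and MCART6, a mitochondrial carrier gene, by -1.32 (SE 0.30, adjusted p = 0.00983). The MCART6 call was lost in 14 of 26 alternatives. All 3 genes lie on the X chromosome in human, and in all 3 the crosses were on the side of the dam's breed. Of the 86 called probes without a chromosome, 5 share a run of 20 bases with a probe of an X-linked gene and none with a mitochondrial one.

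Of 17 measured paternally expressed imprinted genes 2 were called, both higher in MSLW, against 46 of all 9790 genes (0.470%), and 6 of the 17 had an unadjusted p under 0.05. Of 15 maternally expressed genes none was called by limma and none had an unadjusted p under 0.05. Over all probes 4050 of 42436 had one. MAGEL2, a regulator of ubiquitination that is expressed from the paternal copy in other mammals, had the largest difference among called autosomal probes. Its probes are shown because both were called in the same direction.

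MAGEL2 probe A: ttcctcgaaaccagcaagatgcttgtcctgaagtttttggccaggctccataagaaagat
MAGEL2 probe B: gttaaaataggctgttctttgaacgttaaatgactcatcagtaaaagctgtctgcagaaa

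MAGEL2 probe A read 9.12 to 9.45 in MSLW (median 9.22) and 5.57 to 7.0 in LWMS (median 6.52). The difference was 2.88 (SE 0.22, adjusted p = 4.44e-15), and it had the same sign as MS minus LW (2.45), so that each cross lay with its sire's breed. Probe B read 9.94 to 10.32 in MSLW and 8.36 to 9.22 in LWMS, a difference of 1.54 (SE 0.13, adjusted p = 3.94e-14) beside 1.21 between the breeds. Both probes were higher in MSLW on all 8 slides, and at day 110 (3.16 and 1.56).

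NDN, which encodes necdin and neighbours MAGEL2 in a conserved imprinted domain, ran from 10.84 to 11.53 in MSLW and from 10.31 to 10.93 in LWMS, with some overlap. Its difference was 0.46 (SE 0.10, adjusted p = 0.00386). By sign it was on the sire's side, but the breeds were not called as different (MS minus LW 0.24, adjusted p = 0.0771). The call was lost in 12 of the 27 alternatives and without both arrays that stood apart (adjusted p = 0.015). At day 110 the difference was 0.02, and the change between the ages was not called (adjusted p = 0.275).

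For the other imprinted genes the fit gives intervals. IGF2, the fetal growth factor gene expressed from the paternal copy, read 17.33 to 17.59 in MSLW and 17.35 to 17.60 in LWMS at its main probe. Its difference was 0.01 (95% interval -0.10 to 0.12), and its 8 other probes ranged from -0.31 to -0.04. MS minus LW was -0.01 at the main probe, but -0.83 to -0.30 at the 8 others. At day 110 the crosses differed by -0.77 to -0.44 at those 8, some of them called. INS-IGF2, listed as a separate gene, differed by -0.20 at day 90 (adjusted p = 0.425) and by -0.54 at day 110 (adjusted p = 0.000299). IGF2R, the maternally expressed receptor that clears IGF2, differed by 0.03 (95% interval -0.13 to 0.18). DLK1, a paternally expressed inhibitor of adipocyte differentiation, differed by 0.44 (-0.01 to 0.89), MEG3, the maternally expressed RNA of the same domain, by 0.18 (-0.15 to 0.51), and PEG10 by 0.12 (-0.31 to 0.54). The growth inhibitor gene DIRAS3 (0.78, adjusted p = 0.119) and PEG3 (0.38, adjusted p = 0.109) did not pass the test. The main probes of the remaining imprinted genes lay between -0.26 (DIO3) and 0.57 (OSBPL5). OSBPL5 rested on 1 MSLW array at 17.73, the others being at 13.73 or below.

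**Figure D4:**
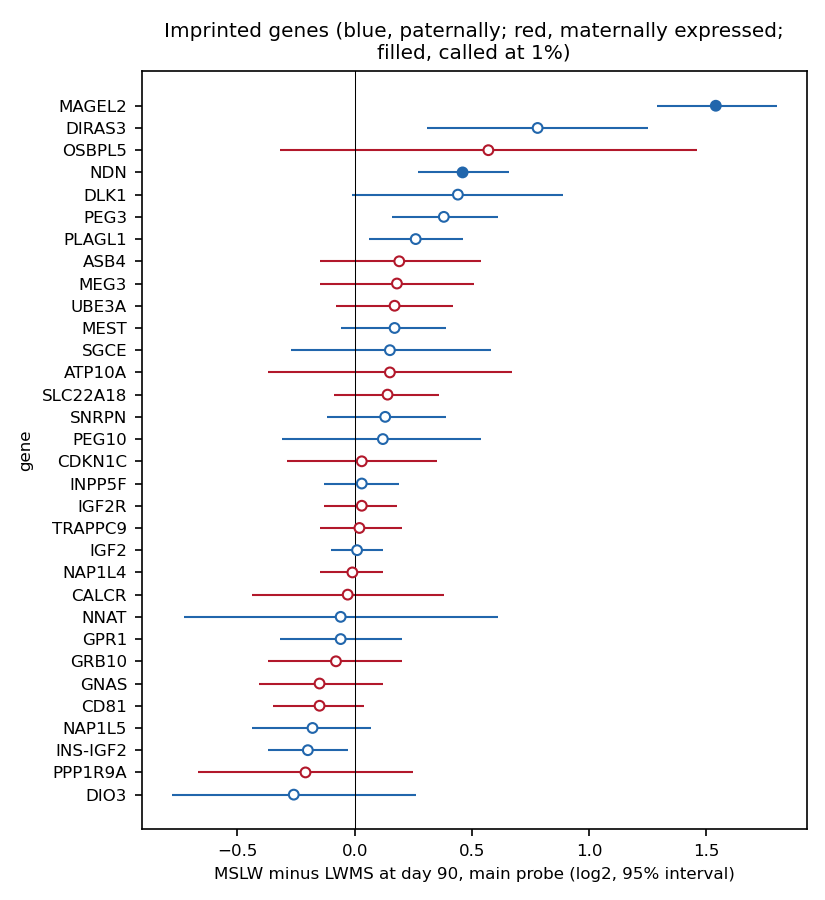
Difference between the crosses at day 90 (MSLW minus LWMS, log2) for the main probe of each of the 32 measured imprinted genes, with its 95% interval. Blue marks genes listed as paternally expressed and red those listed as maternally expressed. Filled points (MAGEL2 and NDN) were called at 1%.

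Other autosomal genes were called in both directions, and 8 main probes were higher and 6 lower in MSLW. PLEKHD1 read 5.23 to 6.26 in MSLW and 2.92 to 4.34 in LWMS, where 4 of 8 arrays were well above background, and the fitted difference was 1.96 (SE 0.30, adjusted p = 8.91e-06). Its size ranged from 0.57 to 2.06 over the alternatives, all of them called. SLCO4A1, an organic anion transporter gene, was well above background on 6 MSLW arrays and on no LWMS array, and was at least 1.83-fold higher in MSLW (adjusted p = 1.9e-05). Its call was lost with the normexp background correction (adjusted p = 0.015). KRT2, a keratin gene, differed by 1.28 (SE 0.20) at its main probe and by -0.49 at the other. In these 3 genes the crosses were on the side of the dam's breed. NCL, the nucleolar protein nucleolin, was higher by 1.05 (SE 0.17), while the breeds differed by 0.14 and its other probe by -0.04.

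ESR1, the oestrogen receptor alpha gene, was lower in MSLW, with 7.69 to 8.06 (median 7.82) against 8.24 to 9.0 (median 8.46) in LWMS. Its main probe differed by -0.68 (SE 0.12, adjusted p = 0.000441), on the dam's side, and by the same amount at day 110, but a second, dim probe did not differ (-0.05, SE 0.28). TGFBR3, a co-receptor of transforming growth factor beta, differed by -0.55 (SE 0.12) and the receptor gene GPR83 by -1.62 (SE 0.33), both on the sire's side. WDR3, of ribosome assembly, differed by -0.97 (SE 0.22) and at a second called probe by -1.38 (SE 0.29), with its 4 other probes between -0.02 and 0.11. GCDH, an enzyme of lysine breakdown, differed by -0.54 (SE 0.12). Each of TGFBR3, GPR83, WDR3 and GCDH lost its call in at least 9 of 27 alternatives.

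The genes that follow were chosen after their values were seen, among those with more than 1 called probe. RHOB, a small GTPase, was lower in MSLW at 3 probes (-0.74, -0.72 and -0.71), all on the dam's side. PKIB, an inhibitor of protein kinase A, was lower at 3 probes (-0.85, -0.73 and -0.70), where the breeds differed by -0.18 to -0.08. The main probes of RHOB and PKIB were not called, and the values of their uncalled probes are not given here. ACTN2, the Z-disc protein alpha-actinin 2, was higher at 2 probes (0.42 and 0.40), and ACTA1, skeletal muscle actin, at 2 (0.31 and 0.28), though the main probe of neither was called. At day 110 all 4 probes of these sarcomere genes differed by 0.04 or less in either direction.

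Most gene lists held no call, but over all genes only 46 of 9790 were called (0.470%). At that share a list of 1 to 25 measured genes would usually hold none, and this applies to the cell type markers too. Of 24 lists, 20 had no main probe called by limma, including the IGF axis (19 genes), myosin chains (10), myogenic factors (13), collagen and matrix (25), fatty acid oxidation (22), cell cycle (18) and interferon response (22). Over the 248 genes of these 20 lists, 27 had an unadjusted p under 0.05 (10.9%), against 4050 of the 42436 probes. Fatty acid oxidation had 5 such genes and the glucocorticoid and hypoxia list 4. No marker of adipocytes, endothelium, fibroblasts, leukocytes, Schwann cells, smooth muscle or erythroid cells was called. The mean level of the adipocyte markers ran from 9.27 to 10.30 in MSLW and from 9.52 to 10.24 in LWMS, and that of the 5 erythroid markers from 8.29 to 9.01 and from 8.37 to 8.82. Of those 5 erythroid genes 3 had an unadjusted p under 0.05, with differences over the list from -0.10 to 0.58. In whole muscle, fewer cells of a type and less RNA per cell cannot be told apart.

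The crosses were measured again at day 110 in other fetuses. Of the 212 probes called at day 90, 203 had the same sign at day 110 and 107 were called there in the same direction, where 389 probes were called in all (0.917%). All 47 X-linked and all 47 mitochondrial probes kept their sign, and 26 and 30 of them were called again. Of the 32 autosomal probes 28 kept their sign and 9 were called again. The cross difference changed between the ages at 14 probes (0.0330%), 6 of which carry no gene symbol. PLAGL1, an imprinted zinc finger gene, differed by 0.26 at day 90 (adjusted p = 0.301) and by -0.79 at day 110 (adjusted p = 3.31e-06), and the change of -1.06 passed the test (SE 0.15, adjusted p = 8.6e-05). Its other probe changed by -1.19 (SE 0.20). The X-linked genes TCEAL1 (0.85, SE 0.11) and PLP2 (-0.71, -0.77 and -0.73 at its 3 probes) also changed, neither differing by more than 0.07 at day 90. For ANGPTL1 and the guanylate-binding gene GBP1 the call rested on 1 of 3 probes, not the main one. The called ANGPTL1 probe changed by -1.03 (SE 0.18), whereas its main probe changed by 0.20 and the remaining one by 0.21, neither called. At day 110 the called GBP1 probe was well above background on all 5 MSLW arrays and on none of the LWMS arrays, so that its size is not given here, and its call was lost in 3 alternatives. The main probe of GBP1 changed by 0.96 (adjusted p = 0.175) and the remaining probe by 0.51 (adjusted p = 0.573).

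**Figure D5:**
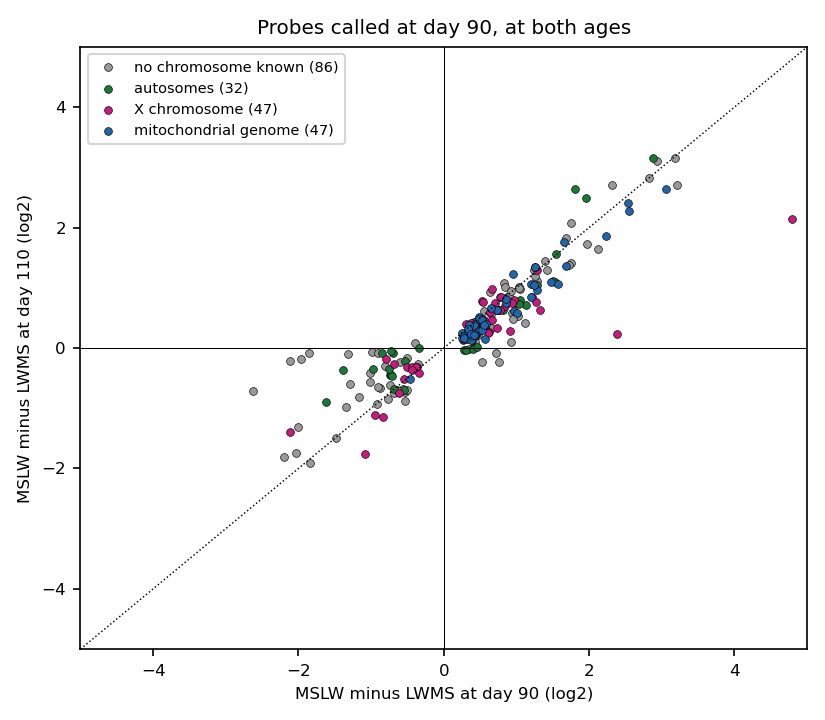
Difference between the crosses (MSLW minus LWMS, log2) at day 110 against that at day 90 for the 212 probes called at day 90, coloured by genome class. The dotted line marks equality. Of the points 203 have the same sign at both ages, among them all 47 mitochondrial probes, of which 30 were called again at day 110. Mitochondrial probes lie on both sides of the line. A probe of ND2 is at 1.57 for day 90 and 1.06 for day 110, and a probe of COX1 at 0.95 and 1.23. Neither change was called.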

How the data were processed

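Intensities of 61 one-colour porcine arrays (Agilent Feature Extraction 10.10.1.1, per the labels) were deposited by the authors, 1 scanner file per fetus, not normalized between arrays. The deposited table of log2 values was quantile normalized by the authors, covers 44368 spots and served as an alternative. Its rows were matched to spots by row number (median absolute difference from the scanner's median signal 0.003). Depth on arrays is limited by their number and by signal over background. The background-corrected intensity of 60306 spots that are not controls was log2 transformed and quantile normalized, spots marked non-uniform were set to missing and spots of a probe were averaged. A probe was kept if, in any of the 8 groups, 80% or more of the arrays read it well above background (42436 kept). The 8 groups were fitted with limma 3.58.1 in R 4.3.3 (moderated two-sided tests, Benjamini-Hochberg over all kept probes). The random sow effect of the study's model was left out, since the labels do not give the sow. The model was tested on simulated data.

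Symbols came from the study's lists, the array's names or RefSeq accessions (20591 kept probes), and chromosomes from RefSeq for Sscrofa11.1 by symbol (20079). No genome was used. A gene's main probe is its brightest kept probe over the 61 arrays. Named genes are those with the 12 largest called main-probe differences in each direction, called members of the gene lists, and all measured imprinted genes. The members and lists were chosen with earlier results of these data known. Where no array of a cross read a probe well above background, the fold is a bound against the dimmest probe well above background. Alternatives changed the signal column, background correction, normalization, filter, marked spots, slide, fitted samples and threshold, and left out each fetus. Figures were drawn with matplotlib 3.10.9. The values of 1 X-linked gene are not reported here.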

Additional observations from a re-analysis of the deposited data

Results flagged for a closer look

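In 144 groups of 8 fetuses (main probes of the named genes and the array summaries, in each cross) 16 held a fetus far from the other 7, where chance flags about 1 group in 20. MSLW replicate 8, 1 of the 2 arrays with many non-uniform spots, stood apart for OSBPL5 (17.73, next 13.73), GNAS (15.39, next 16.73), CD81 (14.30, next 15.24), COX3 (18.41, next 18.81) and KRT2 (10.34, next 9.71). MSLW replicate 2, the other such array, stood apart for PPP1R9A (2.54, next 5.43), FGF13 (9.86, next 9.49) and WDR3 (9.21, next 8.68). In LWMS, replicate 1 stood apart for NAP1L4 (13.98, next 14.26) and MBNL3 (9.17, next 9.36), replicate 2 for WDR3 (8.45, next 9.47) and LAMP2 (10.46, next 10.76), replicate 6 for KRT2 (9.45, next 8.41) and COX3 (18.65, next 18.41), and replicate 4 for DIO3 (5.58, next 4.04). MSLW replicate 1 was lowest for SNRPN (9.21, next 9.52).

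The cross difference changed between day 90 and day 110 for named genes as follows. PLAGL1 changed by -1.06 and -1.19 at its 2 probes, PLP2 by -0.71, -0.77 and -0.73 at its 3 probes, TCEAL1 by 0.85, ANGPTL1 by -1.03 at 1 of 3 probes and GBP1 by 2.66 at 1 of 3 probes, all with an adjusted p under 1% in limma's test of the difference itself. The other ANGPTL1 probes changed by 0.20 and 0.21 and the other GBP1 probes by 0.96 and 0.51, none of them called. The fitted 2.66 of GBP1 is taken against LWMS arrays of day 110 that were not well above background. The change of GBP1 lost its call with the median signal, the deposited values and the normexp correction, where its size fell to as little as 0.74. Of the PLP2 probes, 1 lost its call when single fetuses of day 90 were left out (highest adjusted p 0.0123). Without both arrays of many non-uniform spots, the change of ANGPTL1 and that of the same PLP2 probe were not called.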

How the results depend on the processing

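The count of 212 called probes ranged from 142 to 259 over the other signals, normalizations, filters and fits at 1%, and leaving out single fetuses gave 176 to 213. At 5% it was 343, with 125 lower in MSLW, 86 autosomal and 70 on the sire's side, and 65 changes between the ages. With the 16 crossbred fetuses alone there were 142 calls, of which 31 X-linked, 30 mitochondrial and 37 lower in MSLW. With the slide as a block 49 autosomal probes and 33 changes between the ages were called, and with the median signal 9 changes. Leaving out single fetuses gave 22 to 36 autosomal calls, 17 to 31 on the sire's side (17 without LWMS replicate 3) and 10 to 17 changes between the ages. After seeing the data, the 16 fetuses alone with the slide as a block were added, which gave 78 calls (62 higher, 16 lower, 20 X-linked, 17 mitochondrial, 9 autosomal), 73 of them among the 212. Without both arrays of many non-uniform spots 21 autosomal probes were called, and CLCN4, DIAPH2, GCDH, MCART6, ND3, NDN, PJA1 and TGFBR3 lost their calls. The cause of these shifts was not tested.

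Of the 38 called named genes, 19 kept their call in every such setting that tested them and without each fetus in turn, and no called difference turned its sign. DIRAS3 passed the threshold in 2 alternatives. Replicate numbers were given in accession order and pair no fetuses, so that the crosses were paired only by slide, as in the slide blocks above. Scaling to the 75th percentile moved the median difference of all probes to 0.03. Fitted differences of dim probes were smallest with the normexp correction, at 1.77 for SERPINA7, 0.28 for SLCO4A1, 0.69 for IL1RAPL2, -0.61 for NAP1L2, -0.43 for MCART6 and -0.84 for GPR83.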
